A study of Rattus norvegicus with 16 samples.

Results

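The genes described here encode the signaling machinery of the transforming growth factor beta (TGF-beta), bone morphogenetic protein (BMP) and activin family. Members were chosen by gene symbol alone: the TGF-beta, BMP and GDF ligands, the inhibin and activin subunits, the latent TGF-beta binding proteins (Ltbp1 to Ltbp4), antagonists such as Nog, Grem1, Chrd, Fst and Nbl1, the receptors and the Smads, with the protease Bmp1 matched through its name. The rule found 59 of the 31038 genes in the tables. They were measured by RNA-seq in rat sciatic nerve at 8 conditions with 2 libraries each. Schwann cells, the glia of the peripheral nerve, and undissociated whole nerve were each sampled from uncrushed nerve and at 3, 5 and 7 days after crush of the left sciatic nerve, and the labels give the age of all rats as postnatal day 18. Per the methods this was the age at surgery, so later samples would be older and age cannot be told apart from day after crush. No transgene or deletion is named in the sources, and the labels give no strain. Rats with a crush also had isoflurane, an incision and the analgesic carprofen, while uncrushed nerves came without a sham operation, so these cannot be told apart from the crush. Only the part of a crushed nerve distal to the injury was taken, with the matching part of uncrushed nerves. Schwann cells were purified by immunopanning, in which cells carrying Cd45 or Thy1 were removed and cells binding the O4 antibody were kept, and each purified sample pooled at least 10 nerves. Purified cells passed through dissociation and whole nerve did not, so differences between the tissues include that step.

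In this pathway a ligand dimer brings together type II and type I receptor kinases, and the type I receptor phosphorylates receptor Smads that enter the nucleus with Smad4. TGF-beta and activin act mainly through Smad2 and Smad3, and BMPs mainly through Smad1, Smad5 and Smad9, while Smad6 and Smad7 inhibit. TGF-beta is secreted in a latent complex that LTBPs tether to the extracellular matrix, and secreted antagonists such as follistatin (Fst) and Nbl1 bind ligands before they reach receptors. In nerve, TGF-beta is known as a regulator of Schwann cell proliferation, survival and myelination.

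The promoters of 6 members that carry the main results below are shown, 4 that rose in Schwann cells after crush and 2 that fell. Each is 300 bases, from 250 before to 50 after the gene's start, 5′ to 3′ on the gene's strand, from RefSeq on the GRCr8 assembly. These coordinates belong to GRCr8 and not to the Rnor_6.0 assembly behind the read counts. Capitals mark matches, on either strand, to 3 motifs: CAGAC (a Smad-binding element), GGCGCC (an element bound by BMP-activated Smads) and TGANTCA (AP-1). None of the 3 motifs contains another.
Tgfb1 (chr1:90324062-90324361, plus strand): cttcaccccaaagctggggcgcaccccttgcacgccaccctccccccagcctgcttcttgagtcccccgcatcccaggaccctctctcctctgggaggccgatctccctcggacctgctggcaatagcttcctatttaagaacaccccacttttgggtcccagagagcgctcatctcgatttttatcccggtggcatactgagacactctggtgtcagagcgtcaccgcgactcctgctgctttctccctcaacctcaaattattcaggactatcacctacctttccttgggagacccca
Ltbp1 (chr6:26177252-26177551, minus strand): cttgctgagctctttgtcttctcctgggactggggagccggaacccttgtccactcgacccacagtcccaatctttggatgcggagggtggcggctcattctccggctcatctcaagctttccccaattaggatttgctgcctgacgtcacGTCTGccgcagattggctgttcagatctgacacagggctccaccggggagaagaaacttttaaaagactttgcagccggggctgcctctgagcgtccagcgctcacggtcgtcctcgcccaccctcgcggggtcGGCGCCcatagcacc
Nbl1 (chr5:156613133-156613432, minus strand): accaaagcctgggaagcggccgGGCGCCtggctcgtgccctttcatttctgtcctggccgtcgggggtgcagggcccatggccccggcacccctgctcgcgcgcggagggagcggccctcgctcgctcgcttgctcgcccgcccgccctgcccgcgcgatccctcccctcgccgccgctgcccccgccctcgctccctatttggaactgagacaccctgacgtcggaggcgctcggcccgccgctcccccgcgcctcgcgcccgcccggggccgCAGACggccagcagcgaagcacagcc
Inhba (chr17:53804459-53804758, minus strand): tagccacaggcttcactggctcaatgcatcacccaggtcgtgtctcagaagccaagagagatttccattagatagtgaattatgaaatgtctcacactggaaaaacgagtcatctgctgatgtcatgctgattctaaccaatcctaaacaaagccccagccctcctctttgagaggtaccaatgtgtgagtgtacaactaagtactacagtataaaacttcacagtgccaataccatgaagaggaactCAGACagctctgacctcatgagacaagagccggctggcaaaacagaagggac
Ltbp4 (chr1:91759758-91760057, minus strand): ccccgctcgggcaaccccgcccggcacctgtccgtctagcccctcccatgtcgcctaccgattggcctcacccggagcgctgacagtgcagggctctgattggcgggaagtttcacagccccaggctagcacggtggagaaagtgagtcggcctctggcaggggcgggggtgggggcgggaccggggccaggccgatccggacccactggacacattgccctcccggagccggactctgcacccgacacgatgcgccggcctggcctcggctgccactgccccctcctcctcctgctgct
Tgfbr3 (chr14:2634044-2634343, plus strand): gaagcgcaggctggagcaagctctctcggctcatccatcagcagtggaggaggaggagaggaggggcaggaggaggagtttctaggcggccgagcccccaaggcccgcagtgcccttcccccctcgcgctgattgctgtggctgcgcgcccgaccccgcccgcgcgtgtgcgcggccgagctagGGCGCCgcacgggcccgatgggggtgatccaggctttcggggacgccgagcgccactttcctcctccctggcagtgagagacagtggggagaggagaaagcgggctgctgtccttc
Ltbp1 and Nbl1, which rose in Schwann cells, each held both Smad motifs. In Ltbp1 the CAGAC match began at -99 and the GGCGCC match at 35 relative to the start, and in Nbl1 the GGCGCC match began at -228 and the CAGAC match at 24. Inhba held CAGAC at -2 and Tgfbr3, which fell, held GGCGCC at -66. Tgfb1 and Ltbp4 held none of the 3. RefSeq promoters were matched for 47 members: CAGAC was in 19 of them against 50.0% of 27457 promoters, GGCGCC in 15 against 11.8%, and TGANTCA in 1 (Bmpr1a) against 7.33%. These are matches of letters, and binding was not measured. Fst and Bmpr1b had no entry.

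Libraries held 10555067 to 27562637 expected read counts. Levels are given as normalised FPKM (fragments per kilobase of transcript, scaled to library size), recomputed from the deposited expected counts and effective lengths and scaled within each tissue's 8 libraries, with replicate 1 first. The 8 Schwann cell markers (Sox10, S100b, Mbp and others) were all present in the purified cells, summed at 141 to 199% of their summed level in whole nerve of the same day after crush but at 36.4 and 38.8% before crush. Before crush the sum and the single genes parted. By edgeR's test at an adjusted p under 0.05, 5 of the 8 were called higher in the purified cells and 3 lower (median log2 difference 1.28). Summed over 6 genes, fibroblast markers in the purified cells stood at 3.11 to 5.84% of the whole nerve level, and those of macrophages, over 7 genes, at 0.522 to 3.24%. Perineurial markers stood at 26.5 to 50.0%, and 1 of their 4 genes was at 0 in both libraries of the uncrushed and of the day 7 Schwann cells. This sum hid a split. Before crush and at days 3 and 5, 1 of the 4 was called higher in the purified cells than in whole nerve and 3 lower. At day 7, 3 were lower and 0 higher. The median log2 differences were -4.26, -3.78, -3.60 and -4.83 in that order. The Schwann cell day 3 replicate 2 library differed from its replicate: its macrophage markers were at 2.61% against 0.522% in replicate 1, its endothelial markers at 4.54% against 0.886% and its pericyte and smooth muscle markers at 6.38% against 2.65%. Uncrushed Schwann cells held macrophage markers at 3.24 and 2.59% and endothelial markers at 1.94 and 1.68%. Their pericyte and smooth muscle markers were at 13.9 and 10.7%, summed at 46.0 and 35.5 FPKM, against 7.12 to 17.1 FPKM in the 6 later libraries, and perineurial markers summed at 117 and 118 FPKM before crush against 58.1 to 65.4 later. Of the 4 pericyte and smooth muscle markers, 1 was called higher than in whole nerve before crush and 3 lower (median log2 difference -5.14). Fibroblast markers summed at 325 and 323 FPKM before crush against 154 to 247 later. All 3 sums were thus lower after crush, when some members were lower too. Single markers moved less evenly. Of 6 fibroblast markers tested in Schwann cells, 1 was called higher and 1 lower at day 3, 1 and 2 at day 5, and 0 at day 7. Of 4 pericyte and smooth muscle markers, 1 was lower at each day. Of 3 perineurial markers, 1, 2 and 2 were lower, with 0 higher in both lists. At day 5, replicate 1 held macrophage markers at 2.84% and replicate 2 at 0.894%. Lymphocyte markers were at 0 in the purified cells except in day 3 replicate 2, at 0.0236 FPKM. In whole nerve, all 7 macrophage markers rose at days 3 and 5 and 6 of the 7 at day 7. The part of other cells in the values below was not tested. A lower level in bulk RNA can reflect fewer cells of a type or less RNA per cell, and these cannot be told apart.

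In Schwann cells, 35 of the 59 members passed the filter on low counts and were tested. Of these, 17 changed by day 3 (48.6%; 10 rose and 7 fell) at an adjusted p under 0.05 in edgeR's quasi-likelihood test, against 52.5% of all 14961 genes tested (26.9% higher and 25.7% lower). At day 5, 24 changed (68.6%; 11 rose and 13 fell) against 54.6% of all genes, and at day 7, 21 changed (60.0%; 10 rose and 11 fell) against 46.9% (25.0% higher and 21.9% lower). The median log2 fold change of the tested members was -0.20, -0.37 and -0.15 at days 3, 5 and 7, beside 0.003, 0.058 and 0.061 over all genes. In whole nerve, 45 members were tested and 26 changed at day 3 (9 rose and 17 fell) against 45.6% of all 15831 genes, 19 at day 5 (9 rose and 10 fell) against 38.4%, and 14 at day 7 (6 rose and 8 fell) against 31.3%. The balance of rises and falls depended on the setting. In Schwann cells at day 3 it was 10 rises and 10 falls with upper quartile scaling and 10 and 11 in the fit of all 16 libraries. Without day 5 replicate 1 it was 8 and 8 at day 5, and falls at day 7 numbered 6 without day 7 replicate 1 and 7 without replicate 2. In whole nerve at day 7 it was 8 rises and 7 falls in the fit of all 16 libraries and 5 and 5 without day 7 replicate 1. Among all genes called in whole nerve at day 7, 49.3% were higher, and 60.8% in the fit of all 16 libraries. Since a gene can pass the filter through the condition in which it is high, these counts describe the tested members and not all 59. With 2 libraries per group, p-values set an effect against a spread between replicate libraries that was estimated over all groups of a fit. Libraries were pools of nerves, so the spread between single rats was not measured. An exact two-sided permutation test of 2 against 2 could not give a p below 0.333.

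**Figure D1:**
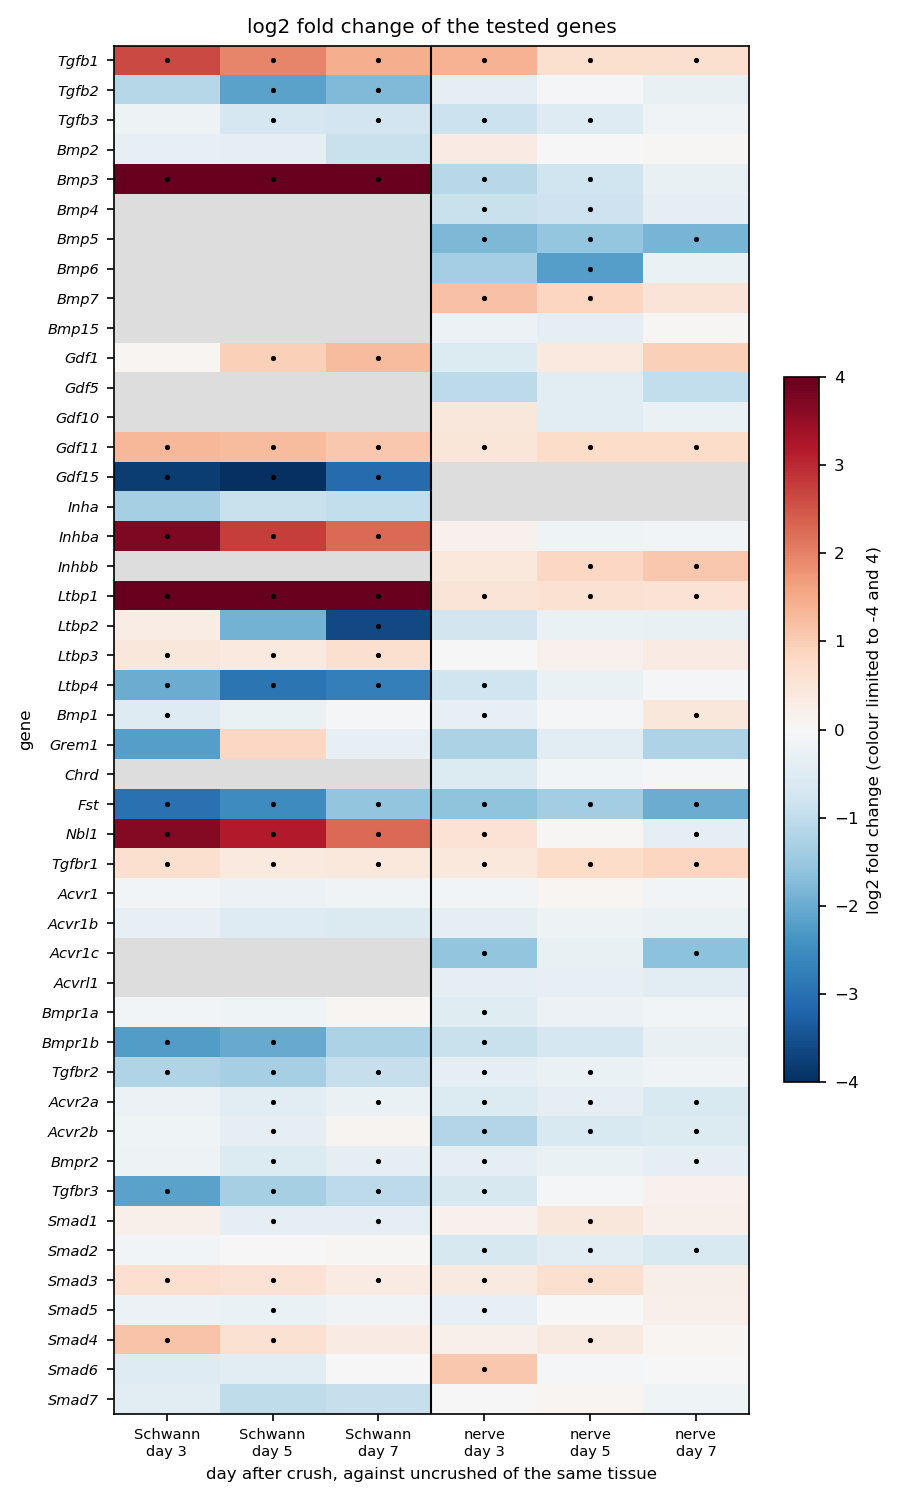
Log2 fold change of 46 of the 47 members tested in at least 1 tissue, at each day after crush against uncrushed of the same tissue. Black dots mark an adjusted p under 0.05, gray marks genes not tested in that tissue, and color is limited to -4 and 4. Values of Bmp3 in Schwann cells and of Ltbp2 in Schwann cells at day 7 have a group with at most 3 counts per library and depend on the prior count. Tgfb1, Ltbp1, Nbl1 and Inhba were strongly higher and Ltbp4, Fst, Gdf15 and Tgfbr3 strongly lower in Schwann cells than before crush.

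Among the TGF-beta ligands, Schwann cells changed from mainly Tgfb3 to mainly Tgfb1 at days 3 and 5 and to near equal shares at day 7. Tgfb1 stood at 3.08 and 2.88 FPKM before crush, then 19.5 and 18.0 (day 3), 9.91 and 13.3 (day 5), and 8.04 and 8.26 (day 7). Every library after crush was above both uncrushed libraries, and day 3 was highest. Log2 fold changes came to 2.64 ± 0.185, 1.94 ± 0.187 and 1.44 ± 0.191 (SE) at days 3, 5 and 7, with adjusted p = 2.4e-06, 2.23e-05 and 0.000238. Tgfb1 then fell from day 3 to day 7 (-1.20 ± 0.165, adjusted p = 0.000899).

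Tgfb3 moved the other way in the purified cells, with 11.0 and 13.0 FPKM before crush, then 9.79 and 11.0 (day 3), 6.75 and 8.30 (day 5), and 6.16 and 7.89 (day 7). The day 3 libraries overlapped the uncrushed ones and the later ones lay below them. Its log2 fold change was -0.20 at day 3 (adjusted p = 0.322), -0.68 at day 5 (0.00710) and -0.77 at day 7 (0.00449), and the day 5 call was lost without day 5 replicate 1 (-0.52, adjusted p = 0.0632). Tgfb1 made up 20.7 and 17.4% of the summed TGF-beta ligand FPKM before crush and 65.9 and 61.5% at day 3, while Tgfb3 went from 73.9 and 78.5% to 33.1 and 37.6%. At day 5 Tgfb1 was at 59.1 and 61.1%, and at day 7 at 55.8 and 50.8% against 42.7 and 48.5% for Tgfb3.

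Tgfb2, the least abundant of the 3 in Schwann cells, stood at 0.808 and 0.666 FPKM before crush, then 0.292 and 0.271 (day 3), 0.113 and 0.198 (day 5), and 0.225 and 0.118 (day 7). All libraries after crush were below the uncrushed ones. It fell at day 5 (log2 fold change -2.13 ± 0.502, adjusted p = 0.00545) and day 7 (-1.78 ± 0.495, adjusted p = 0.0146), while day 3 missed the threshold (-1.15, adjusted p = 0.0624). The day 7 call was lost without uncrushed replicate 1 (-1.80, adjusted p = 0.0540), uncrushed replicate 2 (-1.79, 0.0519) or day 7 replicate 2 (-1.31, 0.0819), and the value was -2.62 without day 7 replicate 1 (adjusted p = 0.0143).

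In whole nerve the rise of Tgfb1 was smaller (difference of the day 3 effects 1.15, adjusted p = 0.00366). Tgfb1 stood there at 4.92 and 5.18 FPKM before crush, then 13.7 and 12.6 (day 3), 8.58 and 7.36 (day 5), and 7.21 and 8.38 (day 7), with no overlap with uncrushed nerve. Its log2 fold changes were 1.39 ± 0.168, 0.65 ± 0.171 and 0.63 ± 0.173 (SE) at days 3, 5 and 7, with adjusted p = 7.74e-05, 0.0126 and 0.0194. At day 5 the call was lost without uncrushed replicate 1 (0.62, adjusted p = 0.0640) or day 5 replicate 1 (0.56, 0.0740). At day 7 it was lost under DESeq2 (0.63, adjusted p = 0.0666) and without uncrushed replicate 1 (0.59, 0.0921), uncrushed replicate 2 (0.66, 0.0517) or day 7 replicate 2 (0.52, 0.0946).

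Whole nerve Tgfb3 stood at 37.4 and 34.9 FPKM before crush, then 21.5 and 18.3 (day 3), 25.5 and 25.0 (day 5), and 35.5 and 30.0 (day 7). It fell at day 3 (-0.86, adjusted p = 0.000133) and day 5 (-0.52, 0.00450), and at day 7 its libraries overlapped those of uncrushed nerve (-0.15, 0.359). Tgfb2 was at 3.02 and 2.38 FPKM before crush and 1.91 to 2.87 in the 6 later whole nerve libraries, with no call. Tgfb1 stayed below Tgfb3 in whole nerve, at 36.5 and 38.3% of the summed ligand FPKM at day 3.

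**Figure D2:**
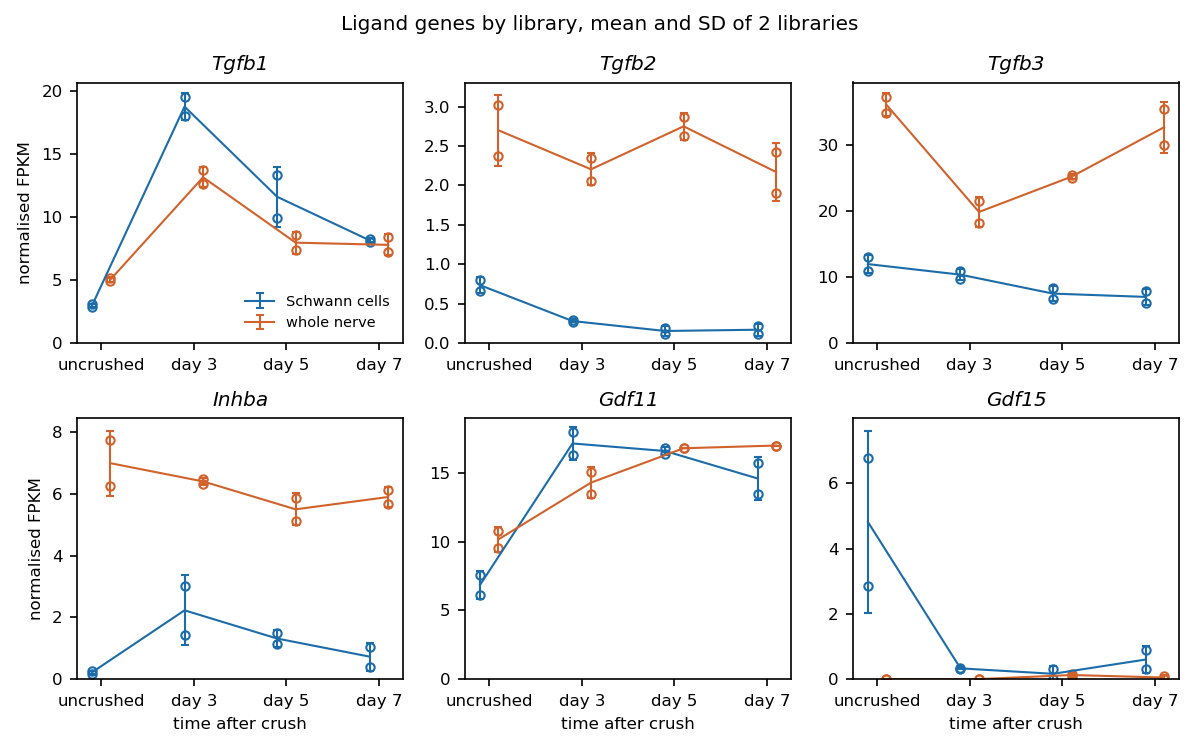
Normalised FPKM of 6 ligand genes before crush and at days 3, 5 and 7, in Schwann cells (blue) and whole nerve (orange). Circles are single libraries, and lines and bars are the mean and SD of 2. Tgfb1 peaked at day 3 in both tissues, Inhba rose in Schwann cells from below 0.3 FPKM but stayed under the whole nerve level, and Gdf15 was above 1 FPKM only in uncrushed Schwann cells.

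The BMP ligands, best known for roles in skeletal and neural patterning, were scarce in Schwann cells. Of the 10, only Bmp2 and Bmp3 were tested there. Bmp2 stood at 0.519 to 1.24 FPKM over the 8 Schwann cell libraries and was not called against uncrushed at any day. Bmp3 had 0 counts in both uncrushed libraries and then stood at 0.132 and 0.272 FPKM (day 3), 0.738 and 0.150 (day 5), and 0.363 and 0.483 (day 7). Against a floor of 3 counts per library this was at least 1.75-fold, 3.85-fold and 3.66-fold higher at days 3, 5 and 7 (adjusted p = 0.0310, 0.00913 and 0.0125). These calls rest on at most 27 counts in a library. The day 3 call was lost without uncrushed replicate 1 (adjusted p = 0.0991), uncrushed replicate 2 (0.0863) or day 3 replicate 2 (0.123), of which day 3 replicate 2 is the library with more endothelial and macrophage markers than its replicate. The day 5 call was lost without day 5 replicate 1 (adjusted p = 0.0586) and the day 7 call without uncrushed replicate 1 (adjusted p = 0.0502).

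Whole nerve carried more BMP ligand RNA, and of the 7 tested BMP ligands 3, 4 and 1 were called lower at days 3, 5 and 7, against 22.5, 19.5 and 15.9% of all genes. Bmp5 stood at 2.27 and 1.60 FPKM before crush, then 0.462 and 0.646 (day 3), 0.629 and 0.690 (day 5), and 0.637 and 0.432 (day 7), with every later library below both uncrushed ones. On the log2 scale the changes were -1.80 ± 0.311, -1.56 ± 0.310 and -1.86 ± 0.322 (SE) at days 3, 5 and 7, with adjusted p = 0.00089, 0.00281 and 0.00149. Bmp6 stood at 0.948 and 1.67 FPKM before crush, then 0.381 and 0.612 (day 3), 0.226 and 0.324 (day 5), and 0.845 and 1.29 (day 7). A lower level was called at day 5 alone (-2.20 ± 0.572, adjusted p = 0.0122), and not without uncrushed replicate 2 (-1.76, adjusted p = 0.0877) or day 5 replicate 1 (-1.96, 0.0808).

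Bmp3 in whole nerve stood at 4.69 and 3.87 FPKM before crush, then 1.86 and 2.10 (day 3), 3.17 and 1.81 (day 5), and 3.17 and 3.86 (day 7). The test called it lower at day 3 (log2 fold change -1.12, adjusted p = 0.00712), opposite to its direction in the purified cells, and at day 5 (-0.80, 0.0400), but not at day 7 (-0.29, 0.450). The day 3 call was lost in the fit of all 16 libraries (-1.05, adjusted p = 0.0644) and without uncrushed replicate 1 (-0.96, 0.0503) or day 3 replicate 1 (-1.02, 0.0520). For day 5 it was lost under DESeq2 (-0.78, adjusted p = 0.0827), in the fit of all 16 libraries (-0.70, 0.225) and without uncrushed replicate 1 (-0.64, 0.184), uncrushed replicate 2 (-0.92, 0.0529) or day 5 replicate 2 (-0.44, 0.247).

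Bmp4 in whole nerve stood at 10.4 and 9.58 FPKM before crush, then 5.81 and 4.65 (day 3), 6.16 and 4.85 (day 5), and 7.42 and 7.69 (day 7), all later libraries below the uncrushed ones. It was called lower at day 3 (-0.90, adjusted p = 0.00225) and day 5 (-0.84, 0.00455). The day 3 call was lost in the fit of all 16 libraries (-0.83, adjusted p = 0.0621) and so was that of day 5 in the fit of all 16 libraries (-0.74, adjusted p = 0.105). Bmp7 was the BMP ligand that rose, from 2.97 and 2.65 FPKM to 7.35 and 5.37 at day 3 (1.17, adjusted p = 0.0006) and 5.20 and 5.11 at day 5 (0.86, 0.00538). In Schwann cells Bmp4 and Bmp7 reached at most 0.155 and 0.0846 FPKM.

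Most growth differentiation factors were near 0, with Gdf11 the most abundant. Gdf11, a ligand close to myostatin, stood in Schwann cells at 7.57 and 6.12 FPKM before crush, then 16.3 and 18.0 (day 3), 16.4 and 16.8 (day 5), and 13.5 and 15.7 (day 7). All later libraries were above both uncrushed ones, giving log2 fold changes of 1.32 ± 0.133, 1.28 ± 0.133 and 1.08 ± 0.133 (SE) at days 3, 5 and 7, with adjusted p = 2.74e-05, 3.8e-05 and 0.000149. Whole nerve Gdf11 rose too, with 10.8 and 9.54 FPKM before crush, then 13.5 and 15.1 (day 3), 16.8 and 16.8 (day 5), and 17.0 and 17.0 (day 7), giving log2 fold changes of 0.49, 0.72 and 0.74 at days 3, 5 and 7 (adjusted p = 0.00273, 0.000315 and 0.000337).

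Gdf15, a stress-induced ligand whose known receptor Gfral lies outside the receptor family described here, was seen in uncrushed Schwann cells at 2.84 and 6.79 FPKM. After crush it stood at 0.348 and 0.309 (day 3), 0 and 0.324 (day 5), and 0.301 and 0.897 (day 7), all below the uncrushed libraries. The log2 fold changes were -3.80 ± 0.833, -4.85 ± 0.940 and -3.08 ± 0.809 (SE) at days 3, 5 and 7, with adjusted p = 0.00378, 0.00187 and 0.0113. Both uncrushed whole nerve libraries had 0 Gdf15 counts, and the other 6 had at most 2.0.

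The size of the Gdf15 fall rested on few reads, with 29.4 and 60.6 expected counts in the uncrushed Schwann cell libraries. At day 3 the value was -3.06 without uncrushed replicate 2 (adjusted p = 0.0401), and at day 5 it was -4.10 without uncrushed replicate 2 (adjusted p = 0.0172), -3.83 without day 5 replicate 1 (adjusted p = 0.0134) and -8.86 without day 5 replicate 2 (adjusted p = 0.00325). At day 7 the call was lost without uncrushed replicate 2 (-2.32, adjusted p = 0.107) or day 7 replicate 1 (-2.43, 0.0949), and the value was -3.93 without day 7 replicate 2 (adjusted p = 0.0273). Gdf15 overlaps Lrrc25 in the annotation, and reads of overlapping genes cannot be told apart without strand.

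Gdf1 was low in Schwann cells, with 0.650 and 0.971 FPKM before crush, then 0.700 and 1.02 (day 3), 1.66 and 1.49 (day 5), and 2.25 and 1.68 (day 7). It was called higher at day 5 (0.94 ± 0.338, adjusted p = 0.0388) and day 7 (1.27 ± 0.338, 0.0121). The day 5 call was lost with upper quartile scaling (0.88, adjusted p = 0.0516), with the replicate block (0.95, 0.0503), under DESeq2 (0.89, 0.123) and without uncrushed replicate 1 (0.67, 0.199), day 5 replicate 1 (0.87, 0.129) or day 5 replicate 2 (1.03, 0.0763). The day 7 call was lost without uncrushed replicate 1 (1.00, adjusted p = 0.0789) or day 7 replicate 1 (1.04, 0.0835). Whole nerve Gdf1 ranged from 0.288 to 1.22 FPKM with no call against uncrushed. Gdf1 overlaps Cers1 and Upf1, so its reads are uncertain. Gdf10, a BMP-like factor, was at 0 counts in all 8 Schwann cell libraries and at 2.79 to 5.57 FPKM in whole nerve, with no call against uncrushed there.

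Of the activin and inhibin subunits, Inhba rose in Schwann cells from near 0. Inhba encodes the beta A subunit, which as a homodimer forms activin A. It stood at 0.256 and 0.179 FPKM before crush, then 1.43 and 3.03 (day 3), 1.5 and 1.13 (day 5), and 0.405 and 1.05 (day 7). Every later library was above both uncrushed ones, giving log2 fold changes of 3.74 ± 0.490, 2.78 ± 0.505 and 2.28 ± 0.524 (SE) at days 3, 5 and 7, with adjusted p = 0.000158, 0.00128 and 0.00584. The higher of the day 3 values came from replicate 2, the day 3 library with more macrophage, endothelial and pericyte markers than its replicate, but the calls at days 3, 5 and 7 held in each fit that left out 1 library. Inhba fell from day 3 to day 7 (-1.46, adjusted p = 0.0263), a call lost without day 3 replicate 2 (-1.17, adjusted p = 0.185) or day 7 replicate 1 (-1.01, 0.172).

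Whole nerve held Inhba at 6.25 and 7.75 FPKM before crush, then 6.33 and 6.49 (day 3), 5.87 and 5.14 (day 5), and 5.68 and 6.13 (day 7), with no call (adjusted p = 0.360, 0.383 and 0.610). Inhbb, the beta B subunit, reached at most 0.156 FPKM in Schwann cells, in day 3 replicate 2. In whole nerve it stood at 0.970 and 0.921 FPKM before crush, then 1.23 and 1.30 (day 3), 2.04 and 1.38 (day 5), and 1.96 and 2.07 (day 7), and was called higher at day 5 (0.84, adjusted p = 0.0269) and day 7 (1.09, 0.00966). The day 5 call was lost under DESeq2 (0.86, adjusted p = 0.0956), in the fit of all 16 libraries (0.94, 0.191) and without uncrushed replicate 1 (0.89, 0.0819), uncrushed replicate 2 (0.81, 0.0896) or day 5 replicate 1 (0.55, 0.185). At day 7 it was lost in the fit of all 16 libraries (1.18, adjusted p = 0.120). Inha, the inhibin alpha subunit, was at 0.634 and 0.738 FPKM before crush and 0.162 to 0.410 later in Schwann cells, with no call, and Inhbc and Inhbe had 0 counts in all 16 libraries.

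Among the latent TGF-beta binding proteins in Schwann cells, Ltbp1 replaced Ltbp4 as the most abundant after crush. Ltbp1 was nearly absent from uncrushed Schwann cells, with 0.611 and 0.726 FPKM before crush, then 37.0 and 39.6 (day 3), 30.9 and 33.8 (day 5), and 12.1 and 21.0 (day 7). All 6 later libraries were far above the uncrushed ones, and both day 7 libraries were below those of day 3. Log2 fold changes came to 5.84 ± 0.277, 5.60 ± 0.276 and 4.63 ± 0.272 (SE) at days 3, 5 and 7, with adjusted p = 2.12e-07, 3.83e-07 and 1.53e-06, and -1.22 ± 0.208 from day 3 to day 7 (adjusted p = 0.00287). Whole nerve Ltbp1 rose less, with 15.7 and 11.9 FPKM before crush, then 19.8 and 19.8 (day 3), 21.3 and 21.2 (day 5), and 21.8 and 19.4 (day 7), giving log2 fold changes of 0.52, 0.62 and 0.58 at days 3, 5 and 7 (adjusted p = 0.00574, 0.00270 and 0.00509).

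Ltbp4 went the other way in Schwann cells, with 32.2 and 32.5 FPKM before crush, then 8.10 and 8.19 (day 3), 4.59 and 3.97 (day 5), and 4.93 and 4.89 (day 7). Replicates were close together at every time. On the log2 scale the changes were -1.99 ± 0.104, -2.92 ± 0.109 and -2.72 ± 0.109 (SE) at days 3, 5 and 7, with adjusted p = 3.53e-07, 9.19e-08 and 2.22e-07. In whole nerve Ltbp4 stood at 16.3 and 16.3 FPKM before crush, then 9.74 and 9.12 (day 3), 13.2 and 14.0 (day 5), and 14.4 and 16.5 (day 7). A lower level was called there at day 3 (-0.79 ± 0.0970, adjusted p = 8.94e-05), and not at day 5 (-0.26, 0.0542) or day 7 (-0.07, 0.601). As shares of the summed LTBP FPKM in Schwann cells, Ltbp4 went from 83.0 and 83.0% before crush to 15.4 and 14.5% at day 3, and Ltbp1 from 1.57 and 1.85% to 70.2 and 70.1%. By day 7 Ltbp1 was at 46.2 and 59.6% and Ltbp4 at 18.9 and 13.9%. Ltbp3 ranked above Ltbp4 at day 5 (17.8 and 17.1% against 10.6 and 8.73%) and at day 7 (34.8 and 26.5%). The summed level of the 4 genes was 38.8 and 39.2 FPKM before crush, then 52.8 and 56.5 (day 3), 43.3 and 45.5 (day 5), and 26.1 and 35.2 (day 7). Both day 7 libraries were below the uncrushed ones.

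Ltbp3 rose modestly in Schwann cells, with 5.82 and 5.85 FPKM before crush, then 7.61 and 8.42 (day 3), 7.72 and 7.77 (day 5), and 9.08 and 9.34 (day 7), giving log2 fold changes of 0.46, 0.40 and 0.65 at days 3, 5 and 7 (adjusted p = 0.00561, 0.0102 and 0.000943). The day 3 call was lost without day 3 replicate 2 (0.40, adjusted p = 0.0575) and the day 5 call under DESeq2 (0.35, adjusted p = 0.0753). Ltbp3 overlaps another gene in the annotation, so its reads may not all be its own. Ltbp2, which does not bind latent TGF-beta, was at 0.163 and 0.0985 FPKM before crush, then 0.0416 and 0.280 (day 3), 0.0429 and 0.0282 (day 5), and 0.0175 and 0 (day 7). At day 7 it was at least 4.23-fold lower against the floor of 3 counts per library (adjusted p = 0.0345), a call lost without uncrushed replicate 1 (adjusted p = 0.124), day 7 replicate 1 (0.0678) or day 7 replicate 2 (0.140). In whole nerve Ltbp2 was at 0.178 to 0.330 FPKM, with no call against uncrushed.

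Bmp1, a metalloprotease of the tolloid family that cleaves procollagens and chordin, stood in Schwann cells at 22.8 and 19.1 FPKM before crush, then 17.0 and 12.7 (day 3), 16 and 19.3 (day 5), and 19.9 and 20.3 (day 7). The test called it lower at day 3 (-0.52, adjusted p = 0.0208), a call lost without uncrushed replicate 1 (-0.38, adjusted p = 0.119) or day 3 replicate 2 (-0.31, 0.193).

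**Figure D3:**
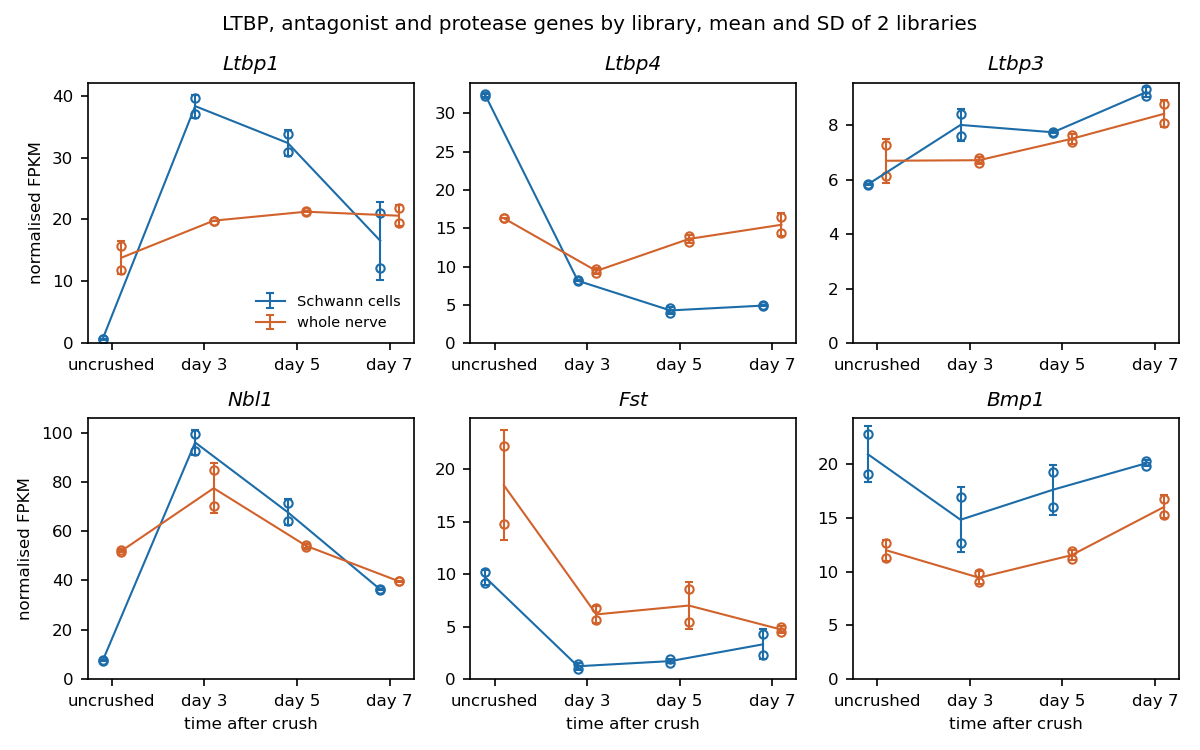
Normalised FPKM of 3 LTBP genes, the antagonists Nbl1 and Fst and the protease Bmp1 before crush and at days 3, 5 and 7, in Schwann cells (blue) and whole nerve (orange). Circles are single libraries, and lines and bars are the mean and SD of 2. Ltbp1 rose from below 1 to above 30 FPKM at day 3 in Schwann cells while Ltbp4 fell from 32.2 and 32.5 FPKM to below 10, and Nbl1 rose from 7.55 and 7.23 FPKM to 92.4 and 99.6.

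Among the secreted antagonists, Nbl1 rose and Fst fell. Nbl1 (also called DAN), a cystine-knot protein that binds BMPs and GDFs, stood in Schwann cells at 7.55 and 7.23 FPKM before crush, then 92.4 and 99.6 (day 3), 64.0 and 71.4 (day 5), and 36.4 and 36.3 (day 7). At day 3 its mean was the highest among the 59 members in Schwann cells. The libraries of the 4 times did not overlap, giving log2 fold changes of 3.68 ± 0.114, 3.18 ± 0.112 and 2.28 ± 0.111 (SE) at days 3, 5 and 7, with adjusted p = 4.97e-08, 7.42e-08 and 5.66e-07 and -1.41 ± 0.0992 from day 3 to day 7 (adjusted p = 2.42e-05). In whole nerve Nbl1 stood at 51.6 and 52.2 FPKM before crush, then 84.7 and 70.2 (day 3), 53.5 and 54.6 (day 5), and 39.6 and 39.8 (day 7). There it was called higher at day 3 (0.58 ± 0.0995, adjusted p = 0.000904), not called at day 5 (0.05, 0.733) and called lower at day 7 (-0.39 ± 0.101, 0.0144). The whole nerve day 7 call was lost without uncrushed replicate 1 (-0.39, adjusted p = 0.0527), uncrushed replicate 2 (-0.38, 0.0553) or day 7 replicate 1 (-0.35, 0.0824).

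Fst, follistatin, which binds activins with high affinity, stood in Schwann cells at 10.2 and 9.21 FPKM before crush, then 1.00 and 1.45 (day 3), 1.87 and 1.56 (day 5), and 2.30 and 4.33 (day 7). All later libraries were below the uncrushed ones. The log2 fold changes were -2.98 ± 0.298, -2.51 ± 0.291 and -1.57 ± 0.278 (SE) at days 3, 5 and 7, with adjusted p = 2.62e-05, 7.39e-05 and 0.00134. From day 3 to day 7 it was called higher (1.41, adjusted p = 0.00986), a call lost without day 3 replicate 1 (1.23, adjusted p = 0.0615) or day 7 replicate 2 (0.93, 0.0563). Whole nerve Fst fell as well, with 22.2 and 14.8 FPKM before crush, then 6.75 and 5.59 (day 3), 8.57 and 5.46 (day 5), and 4.49 and 4.95 (day 7), giving log2 fold changes of -1.60, -1.40 and -1.98 at days 3, 5 and 7 (adjusted p = 0.000374, 0.00122 and 0.000193). In Schwann cells Inhba was thus higher and its antagonist Fst lower than before crush at each of the 3 days. Ltbp1, Nbl1, Fst and Tgfbr3 each overlap a long noncoding RNA in the annotation.

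Other antagonists of the rule were scarce. Noggin (Nog) was at 0.388 and 0.508 FPKM in uncrushed Schwann cells and at most 0.115 after crush, but did not pass the filter. Grem1 was at most 0.594 FPKM in Schwann cells and 0.421 in whole nerve, with no call against uncrushed. Chrd (chordin) stayed at or under 0.132 FPKM in Schwann cells and at 0.443 to 1.05 in whole nerve.

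Tgfbr3 and Tgfbr2, receptors for TGF-beta, had the highest levels of the members in uncrushed Schwann cells, and both fell after crush. Tgfbr3 (betaglycan), a co-receptor that presents ligand and is best known for binding TGF-beta 2 and inhibin, stood at 347 and 351 FPKM before crush, then 82.5 and 76.1 (day 3), 151 and 124 (day 5), and 162 and 177 (day 7). It ranked first of the 59 in uncrushed cells, at a mean of 349 FPKM against 118 for Tgfbr2. All later libraries were below 200. Log2 fold changes came to -2.14 ± 0.119, -1.34 ± 0.116 and -1.05 ± 0.116 (SE) at days 3, 5 and 7, with adjusted p = 5.47e-07, 1.09e-05 and 7.57e-05. It rose again from day 3 to day 7 (1.09 ± 0.116, adjusted p = 0.000223). In whole nerve Tgfbr3 stood at 72.5 and 82.2 FPKM before crush, then 50.3 and 49.0 (day 3), 68.0 and 77.4 (day 5), and 79.1 and 93.2 (day 7), and was called lower at day 3 (-0.64 ± 0.110, adjusted p = 0.000906) but not at day 5 or 7 (0.555 and 0.317).

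Tgfbr2, the type II receptor that binds TGF-beta, stood in Schwann cells at 123 and 113 FPKM before crush, then 55.3 and 47.5 (day 3), 48.6 and 46.3 (day 5), and 64.0 and 61.1 (day 7). No later library reached the uncrushed level, giving log2 fold changes of -1.21 ± 0.108, -1.33 ± 0.108 and -0.92 ± 0.107 (SE) at days 3, 5 and 7, with adjusted p = 1.17e-05, 7.56e-06 and 0.000105. In whole nerve the fall was smaller, with 83.9 and 97.4 FPKM before crush, then 70.2 and 70.2 (day 3), 74.5 and 75.7 (day 5), and 81.8 and 82.4 (day 7), giving log2 fold changes of -0.37, -0.27 and -0.15 at days 3, 5 and 7 (adjusted p = 0.00678, 0.0350 and 0.240). The whole nerve day 3 call was lost without uncrushed replicate 2 (-0.25, adjusted p = 0.0635), day 3 replicate 1 (-0.36, 0.0509) or day 3 replicate 2 (-0.36, 0.0506). That of day 5 was lost with no filter on low counts (-0.24, adjusted p = 0.0699), in the fit of all 16 libraries (-0.17, 0.199) and without uncrushed replicate 2 (-0.16, 0.258), day 5 replicate 1 (-0.25, 0.164) or day 5 replicate 2 (-0.28, 0.121).

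Tgfbr1, the type I kinase partner of Tgfbr2, rose instead. In Schwann cells it stood at 18.9 and 23.3 FPKM before crush, then 33.4 and 32.7 (day 3), 28.7 and 26.9 (day 5), and 28.2 and 28.3 (day 7), every later library above both uncrushed ones. On the log2 scale the changes were 0.65 ± 0.113, 0.40 ± 0.113 and 0.42 ± 0.113 (SE) at days 3, 5 and 7, with adjusted p = 0.00102, 0.0143 and 0.0131. At day 5 the call was lost without uncrushed replicate 1 (0.26, adjusted p = 0.0569) or day 5 replicate 1 (0.36, 0.0777), and at day 7 without day 7 replicate 1 (0.43, adjusted p = 0.0508). In whole nerve it stood at 19.7 and 18.3 FPKM before crush, then 24.3 and 26.7 (day 3), 29.8 and 33.2 (day 5), and 34.2 and 34.9 (day 7), giving log2 fold changes of 0.42, 0.73 and 0.86 at days 3, 5 and 7 (adjusted p = 0.00414, 0.000178 and 6.84e-05).

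Of the activin and BMP receptors, Acvr2a, a type II activin receptor, stood in Schwann cells at 78.9 and 80.1 FPKM before crush, then 65.9 and 64.6 (day 3), 59.0 and 56.3 (day 5), and 58.5 and 63.7 (day 7). It was called lower at day 5 (-0.41, adjusted p = 0.00429) and day 7 (-0.28, 0.0315), the day 7 call being lost with no filter on low counts (-0.27, adjusted p = 0.0793) and without uncrushed replicate 2 (-0.26, 0.0546), day 7 replicate 1 (-0.23, 0.176) or day 7 replicate 2 (-0.31, 0.0748), and it overlaps Orc4. Bmpr2, the BMP type II receptor, stood at 94.8 and 82.6 FPKM before crush, then 71.4 and 67.3 (day 3), 62.3 and 53.2 (day 5), and 58.9 and 66.9 (day 7) and was also called lower at day 5 (-0.56, adjusted p = 0.00251) and day 7 (-0.35, 0.0301), the day 7 call being lost without uncrushed replicate 1 (-0.32, adjusted p = 0.0802) or day 7 replicate 1 (-0.24, 0.201). Bmpr1a, a BMP type I receptor, ranged from 37.3 to 45.2 FPKM over the 8 Schwann cell libraries with no call against uncrushed.

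Acvr2b, the other activin type II receptor, fell in whole nerve at day 3 (-1.17, adjusted p = 0.000106), from 3.22 and 2.91 FPKM to 1.52 and 1.21. In Schwann cells it ranged from 3.58 to 5.50 FPKM and was called lower at day 5 alone (-0.37, adjusted p = 0.0375), a call lost with the replicate block (-0.37, adjusted p = 0.0535) and without uncrushed replicate 2 (-0.23, 0.177), day 5 replicate 1 (-0.46, 0.0515) or day 5 replicate 2 (-0.26, 0.223).

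Bmpr1b, another BMP type I receptor, was rare in Schwann cells, with 0.202 and 0.0995 FPKM before crush, then 0.0352 and 0.0483 (day 3), 0.0102 and 0.0675 (day 5), and 0.0799 and 0.0402 (day 7). A lower level was called at day 3 (-2.24 ± 0.779, adjusted p = 0.0347) and day 5 (-2.02 ± 0.775, 0.0498) but not at day 7 (-1.28, 0.184). The day 3 call was lost with the replicate block (-2.23, adjusted p = 0.0542) and without uncrushed replicate 1 (-1.63, 0.217), day 3 replicate 1 (-2.39, 0.0947) or day 3 replicate 2 (-2.10, 0.150). That of day 5 was lost with the replicate block (-1.98, adjusted p = 0.0817), under DESeq2 (-2.07, 0.0641) and without uncrushed replicate 1 (-1.40, 0.283), uncrushed replicate 2 (-2.45, 0.0505) or day 5 replicate 1 (-1.16, 0.227), and its value was -4.11 without day 5 replicate 2 (adjusted p = 0.0117). In whole nerve Bmpr1b stood at 1.29 and 2.25 FPKM before crush, then 0.867 and 1.06 (day 3), 1.23 and 1.02 (day 5), and 1.72 and 1.25 (day 7), and its day 3 call (-0.90, adjusted p = 0.0255) was lost in the fit of all 16 libraries (-0.84, adjusted p = 0.0855) and without uncrushed replicate 2 (-0.43, 0.247), day 3 replicate 1 (-0.79, 0.133) or day 3 replicate 2 (-1.02, 0.0669).

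Acvr1c (ALK7), a type I receptor best known from adipose tissue and pancreas, was close to absent from Schwann cells, with 3.0 counts in 1 uncrushed library, 1.0 in 1 day 5 library and 0 in the other 6. In whole nerve it stood at 6.65 and 4.18 FPKM before crush, then 2.11 and 1.54 (day 3), 5.09 and 3.91 (day 5), and 1.44 and 2.06 (day 7). The test called it lower there at day 3 (-1.58 ± 0.294, adjusted p = 0.00141) and day 7 (-1.64 ± 0.304, 0.00222) but not at day 5 (-0.29, 0.449). Acvrl1 (ALK1), known from endothelium, was at 4.36 to 6.38 FPKM in whole nerve and at most 0.0841 in Schwann cells.

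**Figure D4:**
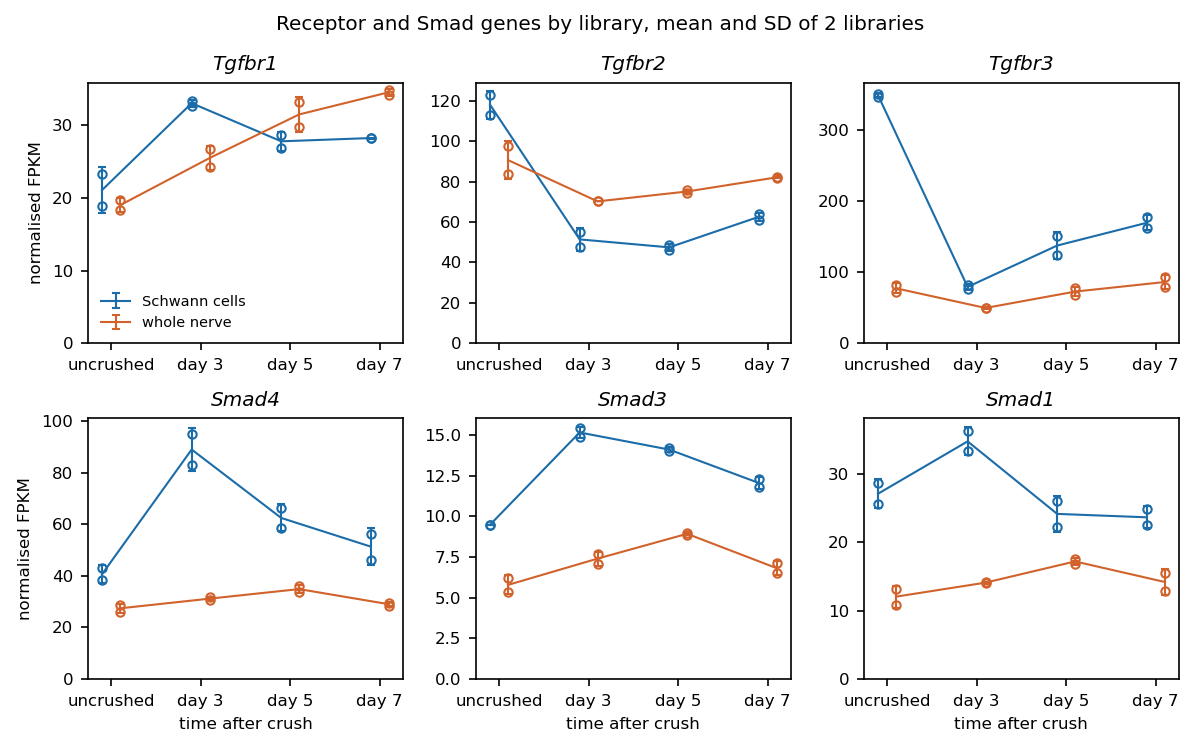
Normalised FPKM of the 3 TGF-beta receptor genes and of Smad4, Smad3 and Smad1 before crush and at days 3, 5 and 7, in Schwann cells (blue) and whole nerve (orange). Circles are single libraries, and lines and bars are the mean and SD of 2. Tgfbr3 and Tgfbr2 fell in Schwann cells from 349 and 118 FPKM on average, Smad4 peaked at day 3 at 94.9 and 82.9 FPKM, and Smad3 was higher in Schwann cells at day 3 than before crush.

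Of the Smads, the TGF-beta and activin mediator Smad3 and the shared partner Smad4 rose in Schwann cells. Smad4 stood at 43.1 and 38.2 FPKM before crush, then 94.9 and 82.9 (day 3), 66.1 and 58.7 (day 5), and 46.3 and 56.3 (day 7). It was called higher at day 3 (1.13 ± 0.130, adjusted p = 6.82e-05) and day 5 (0.61 ± 0.129, 0.00305), but not at day 7 (0.33 ± 0.129, 0.0593), and fell from day 3 to day 7 (-0.79 ± 0.129, 0.00220). In whole nerve Smad4 stood at 26.1 and 28.7 FPKM before crush, then 30.7 and 31.6 (day 3), 33.7 and 36.0 (day 5), and 28.4 and 29.6 (day 7). It was called higher there at day 5 only (0.35, adjusted p = 0.0117), a call lost without uncrushed replicate 1 (0.29, adjusted p = 0.0785) or day 5 replicate 2 (0.30, 0.0801).

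Smad3 stood in Schwann cells at 9.49 and 9.48 FPKM before crush, then 14.9 and 15.4 (day 3), 14.2 and 14.0 (day 5), and 12.3 and 11.8 (day 7), giving log2 fold changes of 0.67, 0.57 and 0.34 at days 3, 5 and 7 (adjusted p = 0.00023, 0.000721 and 0.0139). The day 7 call was lost under DESeq2 (0.29, adjusted p = 0.0832) and without day 7 replicate 1 (0.32, 0.0699). Smad2, the other mediator of TGF-beta and activin, was not called in Schwann cells, at 31.9 to 38.2 FPKM in the 8 libraries, and was lower in whole nerve after crush, giving log2 fold changes of -0.65, -0.44 and -0.62 at days 3, 5 and 7 (adjusted p = 0.000306, 0.00461 and 0.000723). Its whole nerve day 5 call was lost without day 5 replicate 1 (-0.38, adjusted p = 0.0513).

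The BMP mediator Smad1 stood in Schwann cells at 28.6 and 25.6 FPKM before crush, then 36.2 and 33.3 (day 3), 22.3 and 26.0 (day 5), and 24.8 and 22.5 (day 7). Its day 5 libraries overlapped the uncrushed ones. It was called lower at day 5 (-0.40, adjusted p = 0.00839) and day 7 (-0.40, 0.00977), with the day 5 call lost without day 5 replicate 1 (-0.30, adjusted p = 0.0862) and the day 7 call without day 7 replicate 1 (-0.40, adjusted p = 0.0524) or day 7 replicate 2 (-0.38, 0.0575). In FPKM the falls of Smad1 at days 5 and 7 were smaller than these fold changes of counts. Smad9 was at 0 in all Schwann cell libraries. The inhibitory Smad6 and Smad7 were at 0.109 to 0.472 and 0.261 to 0.771 FPKM in Schwann cells with no call against uncrushed. In whole nerve Smad6 stood at 0.465 and 0.510 FPKM before crush, then 1.01 and 1.02 (day 3), 0.814 and 0.371 (day 5), and 0.468 and 0.486 (day 7), and its day 3 call (1.08, adjusted p = 0.0315) was lost under DESeq2 (1.08, adjusted p = 0.161), in the fit of all 16 libraries (1.14, 0.0723) and without uncrushed replicate 1 (1.00, 0.132), uncrushed replicate 2 (1.15, 0.0757), day 3 replicate 1 (1.09, 0.103) or day 3 replicate 2 (1.08, 0.112).

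Between days 3 and 7, 13 of 35 members changed in Schwann cells, 3 higher (Tgfbr3, Fst and Gdf1) and 10 lower, against 21.0% of all genes. In whole nerve 9 were higher and 4 lower of 45, against 21.2% (9.85% higher and 11.4% lower). Ltbp4 differed in direction here, with -0.73 ± 0.106 in Schwann cells (adjusted p = 0.00119) and 0.71 ± 0.0961 in whole nerve (0.000603). The Schwann cell count was 8 without day 3 replicate 2 and without day 7 replicate 1, and the whole nerve count was 7 without day 3 replicate 1. Rises in Schwann cells numbered 5 in the fit of all 16 libraries. Falls in whole nerve numbered 2 in that fit and under DESeq2, and 1 without day 3 replicate 1 or day 7 replicate 1. The whole nerve day 5 count given above, 19, was 12 without day 5 replicate 1 (6 rises and 6 falls).

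Purified Schwann cells were next compared with whole nerve of the same day, in a fit of all 16 libraries. Before crush, 33 of the 47 members tested differed, 10 higher in Schwann cells and 23 lower, against 64.4% of all 16829 genes (29.1% higher and 35.3% lower). At days 3, 5 and 7, 37, 35 and 33 differed, against 57.3, 51.7 and 51.0% of all genes, with 24, 25 and 26 of them lower in Schwann cells (28.7% of all genes lower and 22.4% higher at day 7). At each time the 7 tested BMP ligands were called lower in the purified cells, but in Schwann cells only Bmp2 and Bmp3 passed the filter. The other 5 entered this fit through whole nerve, where they are high, so the filter largely fixed this direction and the count supports nothing. Members of other roles could enter it in the same way. A group was at the floor in 5 of the 7 calls before crush and at days 5 and 7, and in 2 at day 3. Some alternatives lost the call for Bmp2 before crush (adjusted p up to 0.0576) and for Bmp15 at all 4 times (up to 0.157).

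The 10 members higher in purified cells before crush included receptors and Smads. Tgfbr3 was higher at all 4 times, most before crush (log2 difference 2.17 ± 0.122, adjusted p = 2.46e-09). Smad1, Smad3 and Smad4 were also higher at all 4 times, by 1.40, 0.71 and 0.57 before crush and 1.34, 0.92 and 1.40 at day 3. The day 5 call of Smad1 was lost without Schwann cell day 5 replicate 2 (0.34, adjusted p = 0.0544).

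For Ltbp1 and Ltbp4 the order of the tissues changed after crush, for Ltbp1 not at every day. Ltbp1 was lower in Schwann cells before crush (log2 difference -4.38 ± 0.250, adjusted p = 2.79e-09) and higher at day 3 (0.84 ± 0.186, 0.00142). At day 5 the difference was 0.47 ± 0.186 (adjusted p = 0.0454), a call lost with the replicate block (0.47, adjusted p = 0.0519) and without Schwann cell day 5 replicate 1 (0.54, 0.0758), Schwann cell day 5 replicate 2 (0.40, 0.180), whole nerve day 5 replicate 1 (0.48, 0.137) or whole nerve day 5 replicate 2 (0.47, 0.139), and at day 7 it was -0.45 ± 0.188 (0.0600) and not called. Ltbp4 was higher before crush (0.99 ± 0.0959, adjusted p = 5.73e-07) and lower at day 5 (-1.79 ± 0.101, 2.62e-09) and day 7 (-1.78 ± 0.101, 3.25e-09). Nbl1 was lower before crush (-2.81 ± 0.113, adjusted p = 1.17e-10), and at day 3 the difference was 0.20 ± 0.0957 (0.0945). Tgfb1 was lower in Schwann cells before crush (-0.76 ± 0.198, adjusted p = 0.00385), and its difference at day 3 was 0.39 ± 0.154 (0.0443), a call lost with no filter on low counts (0.41, adjusted p = 0.0808), with the replicate block (0.39, 0.0524), under DESeq2 (0.43, 0.0631) and without Schwann cell day 3 replicate 1 (0.33, 0.194), Schwann cell day 3 replicate 2 (0.45, 0.0799), whole nerve day 3 replicate 1 (0.44, 0.0907) or whole nerve day 3 replicate 2 (0.33, 0.206). Inhba was lower in Schwann cells at all 4 times, from -5.37 ± 0.364 before crush to -1.90 ± 0.239 at day 3 (adjusted p = 1.48e-08 and 9.01e-06).

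The injury effect itself differed between the tissues for 13, 14 and 15 of the 47 members at days 3, 5 and 7, by a test of the difference of the effects, against 26.0, 27.5 and 26.0% of all genes. At day 3 the effect in Schwann cells exceeded that in whole nerve for Ltbp1 (difference 5.22 ± 0.313, adjusted p = 5.87e-08) and Inhba (3.47 ± 0.465, 7.62e-05), and lay below it for Tgfbr3 (-1.61 ± 0.167, 7.18e-06), Ltbp4 (-1.31 ± 0.136, 7.21e-06) and Fst (-1.48 ± 0.412, 0.0161). The Fst call was lost without whole nerve uncrushed replicate 2 (-1.20, adjusted p = 0.0628), Schwann cell day 3 replicate 1 (-1.30, 0.0637) or whole nerve day 3 replicate 1 (-1.32, 0.0598). At day 5 Smad1 was called lower in Schwann cells and higher in whole nerve (difference -0.96 ± 0.160, adjusted p = 0.000453), although the whole nerve call (0.44, 0.0159) was lost without uncrushed replicate 2 (0.34, adjusted p = 0.105) or day 5 replicate 1 (0.41, 0.0839). In Smad1 FPKM the Schwann cell libraries of day 5 overlapped the uncrushed ones. At day 7 Nbl1 was above its uncrushed level in Schwann cells and below it in whole nerve (difference 2.55 ± 0.150, adjusted p = 5.86e-08). Whole nerve itself contains Schwann cells.

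A list of 50 other genes of the pathway, outside the symbol rule, was read from the same fits. In Schwann cells, 39 were tested, and 13 rose and 14 fell by day 3 (69.2%, against 52.5% of all genes). Day 5 gave 12 rises and 14 falls (66.7%, against 54.6%), and day 7 gave 11 and 14 (64.1%, against 46.9%). In whole nerve 41 were tested, and day 3 gave 19 rises and 11 falls (73.2%, against 45.6% of all genes), day 5 gave 15 and 4 (46.3%, against 38.4%), and day 7 gave 12 and 6 (43.9%, against 31.3%). The 5 other ligands of the list (Mstn, Nodal, Amh, Lefty1 and Lefty2) were not tested in Schwann cells. By group, the co-receptors and pseudoreceptor gave 0 rises and 2 falls among 4 tested at day 3 in Schwann cells, latency and activation genes 3 and 1 of 8, other antagonists 2 and 4 of 7, regulators of Smads 4 and 2 of 10, and transcriptional readouts 4 and 5 of 10, beside 26.9% of all genes higher and 25.7% lower.

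Integrin beta 8 (Itgb8), which with alpha V releases TGF-beta from its latent complex, was high and rose. It stood in Schwann cells at 242 and 210 FPKM before crush, then 775 and 656 (day 3), 839 and 743 (day 5), and 683 and 834 (day 7). Its log2 fold changes were 1.74, 1.88 and 1.82 at days 3, 5 and 7 (adjusted p = 1.01e-05, 7.11e-06 and 1.24e-05), and in whole nerve 1.96, 2.49 and 2.19 at days 3, 5 and 7 (adjusted p = 1.53e-06, 4.2e-07 and 1.7e-06). The tolloid protease Tll1 stood at 23.4 and 18.2 FPKM before crush, then 3.25 and 3.42 (day 3), 5.61 and 4.71 (day 5), and 3.90 and 4.58 (day 7) in Schwann cells, giving log2 fold changes of -2.64, -2.02 and -2.30 at days 3, 5 and 7 (adjusted p = 9.24e-07, 5.06e-06 and 3.98e-06). Its relative Tll2 was called lower at day 7 (-2.12, adjusted p = 0.0115), and the value was -3.65 without day 7 replicate 1 (adjusted p = 0.00354) and -1.48 without day 7 replicate 2 (adjusted p = 0.0465).

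The antagonists outside the rule were divided. Sostdc1, a secreted antagonist of BMP and Wnt signaling, stood in Schwann cells at 366 and 599 FPKM before crush, then 40.6 and 33.6 (day 3), 163 and 150 (day 5), and 202 and 209 (day 7), giving log2 fold changes of -3.71, -1.64 and -1.24 at days 3, 5 and 7 (adjusted p = 7.86e-07, 0.000106 and 0.000737). The chordin-like genes parted at day 3. Chrdl2 went from 0.208 and 0.126 to 3.85 and 4.09 FPKM (3.97, adjusted p = 6.53e-05), while Chrdl1 went from 1.12 and 1.20 to 0.0998 and 0.214 (-2.82, 0.000804), and its value was -3.51 without day 3 replicate 2 (adjusted p = 0.00237).

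Among regulators of Smads, Pmepa1, a TGF-beta target that restrains Smad signaling, stood in Schwann cells at 5.51 and 4.34 FPKM before crush, then 27.4 and 31.9 (day 3), 45.7 and 30.2 (day 5), and 17.4 and 29.0 (day 7), giving log2 fold changes of 2.60, 2.90 and 2.26 at days 3, 5 and 7 (adjusted p = 6.79e-05, 3.63e-05 and 0.000265). The ubiquitin ligase Nedd4l rose too, with 11.9 and 11.6 FPKM before crush, then 44.8 and 45.9 (day 3), 31.6 and 30.9 (day 5), and 22.3 and 28.7 (day 7), giving log2 fold changes of 1.95, 1.41 and 1.12 at days 3, 5 and 7 (adjusted p = 1.4e-06, 1.23e-05 and 7.84e-05).

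Genes used as readouts of Smad transcription did not move as 1 group. The Id genes are classical BMP targets. In Schwann cells Id2 stood at 74.5 and 84.2 FPKM before crush, then 5.18 and 4.18 (day 3), 18.1 and 19.4 (day 5), and 23.6 and 24.9 (day 7), giving log2 fold changes of -4.12 ± 0.166, -2.11 ± 0.145 and -1.73 ± 0.143 (SE) at days 3, 5 and 7, with adjusted p = 9.54e-08, 2.49e-06 and 1.17e-05. Id4 stood at 90.0 and 63.4 FPKM before crush, then 23.9 and 22.3 (day 3), 23.0 and 24.5 (day 5), and 28.5 and 34.8 (day 7), giving log2 fold changes of -1.74, -1.70 and -1.29 at days 3, 5 and 7 (adjusted p = 2.07e-05, 2.67e-05 and 0.000201). Id1 stood at 25.0 and 28.8 FPKM before crush, then 14.5 and 14.8 (day 3), 20.0 and 21.2 (day 5), and 20.4 and 21.7 (day 7), giving log2 fold changes of -0.93, -0.44 and -0.43 at days 3, 5 and 7 (adjusted p = 0.000351, 0.0199 and 0.0252), the day 5 call being lost under DESeq2 (-0.49, adjusted p = 0.0536) and without uncrushed replicate 2 (-0.34, 0.0868), day 5 replicate 1 (-0.41, 0.0906) or day 5 replicate 2 (-0.45, 0.0733) and the day 7 call with no filter on low counts (-0.43, adjusted p = 0.0503), under DESeq2 (-0.48, 0.0664), in the fit of all 16 libraries (-0.46, 0.0551) and without uncrushed replicate 2 (-0.33, 0.106), day 7 replicate 1 (-0.41, 0.111) or day 7 replicate 2 (-0.44, 0.0792). Id3 was not called in Schwann cells at any day, at 82.6 to 110 FPKM. In whole nerve Id2 was called lower at day 3 (-1.13, adjusted p = 0.00200), while Id1 and Id4 were not called then (0.564 and 0.429).

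Of the readouts better known for TGF-beta, Cdkn2b, a cyclin-dependent kinase inhibitor, was called higher at each day (1.34, 2.06 and 1.60, adjusted p = 0.0147, 0.00135 and 0.00735) from 0.758 and 1.29 FPKM, with the day 3 call lost without uncrushed replicate 1 (0.96, adjusted p = 0.0990) or day 3 replicate 2 (0.81, 0.146) and the day 7 call without uncrushed replicate 1 (1.22, adjusted p = 0.0515). Tgfbi, a matrix protein named for its induction by TGF-beta, fell instead. It stood in Schwann cells at 96.8 and 89.7 FPKM before crush, then 62.9 and 60.3 (day 3), 43.2 and 52.0 (day 5), and 33.0 and 40.3 (day 7), every later library below both uncrushed ones, giving log2 fold changes of -0.60, -0.98 and -1.35 at days 3, 5 and 7 (adjusted p = 0.00288, 0.000154 and 2.8e-05). Ctgf, a matricellular protein, was called lower at day 3 (-1.48, adjusted p = 0.000367) and not at day 5 or 7 (0.288 and 0.452). Tsc22d1 was called higher, giving log2 fold changes of 0.67, 0.64 and 0.60 at days 3, 5 and 7 (adjusted p = 0.00564, 0.00703 and 0.0112), the day 7 call being lost without day 7 replicate 2 (0.46, adjusted p = 0.0796). Klf10 was called higher at day 3 and lower later (0.47, -0.29 and -0.48, adjusted p = 0.00308, 0.0320 and 0.00314), and its day 5 call was lost with no filter on low counts (-0.28, adjusted p = 0.0627) and without uncrushed replicate 1 (-0.23, 0.112), day 5 replicate 1 (-0.32, 0.0826) or day 5 replicate 2 (-0.24, 0.172).

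**Figure D5:**
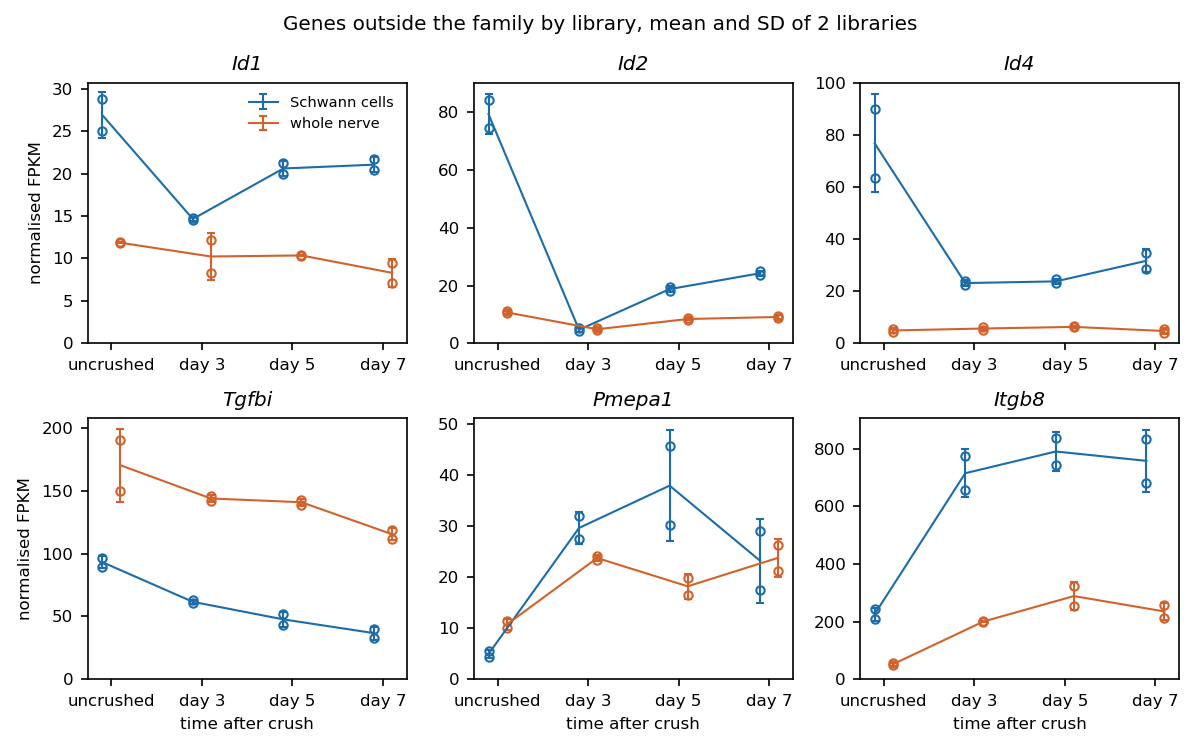
Normalised FPKM of 6 pathway genes outside the symbol rule before crush and at days 3, 5 and 7, in Schwann cells (blue) and whole nerve (orange). Circles are single libraries, and lines and bars are the mean and SD of 2. In Schwann cells Id1, Id2 and Id4 were lowest or near their lowest at day 3, Tgfbi was below its uncrushed level and Pmepa1 and Itgb8 were above theirs at all 3 days.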

How the data were processed

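RNA from 16 libraries was amplified with the Ovation RNA-seq System V2, which adds no molecular identifiers and keeps no strand. The authors deposited, for each library, a table of expected counts and effective lengths per gene. Per the labels and the methods these came from CASAVA, STAR and RSEM on Rnor_6.0. The FPKM and TPM columns deposited by the authors, a matrix of raw counts and a table of module assignments were not used, and FPKM was recomputed here from the expected counts.

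Groups came from the sample labels, and samples were not pooled further. Expected counts were rounded and tested with edgeR 4.0.16 in R 4.3.3 (quasi-likelihood test, TMM scaling, filterByExpr, Benjamini-Hochberg adjustment over all genes tested, threshold 0.05). Effects of injury were fitted on a tissue's 8 libraries, while comparisons between tissues and differences of effects used all 16. Nothing in the sources names the animals behind a library. FPKM values here were scaled by TMM within a tissue, and a fold change is of counts, so it can differ from an FPKM ratio where effective lengths differ. A gene with at most 3 counts in both libraries of a group was treated as at the floor. No broad pairing by replicate number was seen: over 28 pairs of groups, correlations of same-numbered deviations ran from -0.055 to 0.076. Taken over all genes, these cannot exclude a pairing that touches few genes. Total counts of 10555067 to 27562637 limit the precision of low genes, and floors cover counting error only.

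By rule, values in every library were given for the 3 TGF-beta ligands, the 3 TGF-beta receptors and members called in Schwann cells at an absolute log2 fold change of 1.0 or more, or in whole nerve of 1.5 or more. For the difference of effects, those named were called in opposite directions or were the 3 largest or 3 smallest of a day. Pathway genes named were the 3 largest and 3 smallest called in Schwann cells at days 3 and 7, and the readouts. Some genes the rule or lists hold are counted but not reported by name here. Other members given in every library were chosen after their values were seen. Members, lists and tests were chosen with earlier results of these data known. Alternatives were DESeq2 1.42.0, upper quartile scaling, no filter, a replicate block, a fit of all 16 libraries and leaving out each library. Figures used matplotlib 3.10.9.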

Additional observations from a re-analysis of the deposited data

Results flagged for a closer look

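Each value here is a member's injury effect in Schwann cells minus that in whole nerve, on the log2 scale, and was picked out because the test of that difference passed (edgeR's quasi-likelihood test, adjusted p under 0.05) and the member was either called in opposite directions in the tissues or among the 3 largest or 3 smallest such values of its day.

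Ltbp1 and Ltbp4 stood out at all 3 days in opposite senses: the difference was 5.22, 4.85 and 3.93 for Ltbp1 (adjusted p = 5.87e-08, 9.78e-08 and 8.16e-07) and -1.31, -2.78 and -2.77 for Ltbp4 (7.21e-06, 1.73e-08 and 2.29e-08). For Nbl1 it was 3.00 at day 5 and 2.55 at day 7 (adjusted p = 1.73e-08 and 5.86e-08), the latter with opposite calls in the tissues. Inhba differed by 3.47 at day 3 (adjusted p = 7.62e-05), Tgfbr3 by -1.61 at day 3 (7.18e-06) and Smad1 by -0.96 at day 5 (0.000453), again with opposite calls. For Smad1 the Schwann cell libraries of day 5 overlapped the uncrushed ones in FPKM.

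Fst differed by -1.48 at day 3 (adjusted p = 0.0161), a call lost without whole nerve uncrushed replicate 2 (-1.20, adjusted p = 0.0628), Schwann cell day 3 replicate 1 (-1.30, 0.0637) or whole nerve day 3 replicate 1 (-1.32, 0.0598). Tgfb2 differed by -2.17 at day 5 (adjusted p = 0.00156) and -1.56 at day 7 (0.0133). Its day 7 call was lost without Schwann cell day 7 replicate 2 (-1.12, adjusted p = 0.0575) or whole nerve day 7 replicate 1 (-1.35, 0.0503), and the value was -2.44 without Schwann cell day 7 replicate 1 (adjusted p = 0.00322).

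For Bmp3 and Gdf15 a group lay at the floor of 3 counts per library, so the fitted values depend on the prior count and give no bound. Bmp3 had 6.80, 7.52 and 6.90 at days 3, 5 and 7 (adjusted p = 0.0100, 0.00297 and 0.00770), with 0 counts in uncrushed Schwann cells and with opposite calls in the tissues at days 3 and 5. The day 3 call was lost without Schwann cell day 3 replicate 2 (adjusted p = 0.0660). Gdf15 had -8.54 at day 5 (adjusted p = 0.0344), where whole nerve was at the floor at both times, and the call was lost without Schwann cell uncrushed replicate 2 (adjusted p = 0.0659), whole nerve uncrushed replicate 1 (0.0870), whole nerve uncrushed replicate 2 (0.0647), Schwann cell day 5 replicate 1 (0.0505), whole nerve day 5 replicate 1 (0.171) or whole nerve day 5 replicate 2 (0.0652).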

How the results depend on the processing

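Over the 15 counts of members called, 136 of 140 values under an alternative stayed within 1.5 times the reported count. The 4 that moved each left out 1 library: without Schwann cell day 3 replicate 2 and without Schwann cell day 7 replicate 1 the day 7 against day 3 count in Schwann cells was 8, without whole nerve day 5 replicate 1 the whole nerve day 5 count was 12, and without whole nerve day 3 replicate 1 the whole nerve day 7 against day 3 count was 7. Leaving out each library gave 14 to 17, 16 to 22 and 14 to 19 calls for the 3 days in purified cells and 8 to 10 between days 3 and 7. In whole nerve it gave 18 to 23, 12 to 17 and 10 to 14, and 7 to 10. Schwann cells against whole nerve gave 29 to 33 before crush and 29 to 31, 28 to 32 and 26 to 31 after it, and the difference of effects 11 to 14, 10 to 16 and 11 to 14. Where an arm kept 1 library, it was assumed to vary like the others.

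The sources do not say whether equal replicate numbers pair libraries. With the replicate block, 16, 22 and 21 members were called for the 3 days in purified cells and 12 between days 3 and 7, beside 28, 20, 15 and 13 in whole nerve, 33, 36, 33 and 32 between the tissues and 13, 14 and 15 for the difference of effects.

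Over 502 values of 62 named genes and 4538 alternatives, 4073 kept their call, 465 lost it and 0 reversed, and 362 of the 502 kept it under every alternative run. Of those lost, 374 came from leaving out 1 library. Upper quartile scaling moved the median of all genes between the tissues from -0.026 to 0.109 at day 5 and from -0.034 to 0.067 at day 7. Low depth limits genes such as Bmp3, Gdf1, Gdf15, Ltbp2 and Bmpr1b, which have few reads in a group.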
